A study of Drosophila melanogaster with 6 samples.

Results

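The genes described here are the Epsilon class glutathione transferases GstE1 (CG5164, probe set 1623256_at), GstE3 (CG17524, probe set 1637129_at) and GstE7 (CG17531, probe set 1640065_at) of Drosophila melanogaster. They are the 3 probe sets with a GstE symbol among the 260 of the comparison table that the authors deposited, out of 18769 probe sets tested. RNA came from whole adult flies kept for 7 days on standard food, with 3 samples from Canton S, a wild-type laboratory strain, and 3 labelled DHR96 mutant, each on an Affymetrix array. The recorded age was 7 days for every sample. The series' text calls the controls genetically matched, and the labels give neither the allele nor the sex of the flies. Nor do they tell whether samples of one group came from separate batches of flies. The p-values therefore reflect only how these samples varied, which may be technical variation.

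Glutathione transferases couple glutathione to electrophilic compounds, which makes these compounds more soluble and easier to excrete. The Epsilon class is found in insects. Its members act on plant toxins, insecticides and products of lipid peroxidation, and in Anopheles mosquitoes an Epsilon enzyme is known to break down DDT. DHR96, now called Hr96, is a nuclear receptor known for its part in the response to xenobiotics and in the metabolism of dietary lipids.

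All 3 GstE genes read lower on every DHR96 mutant array than on any Canton S array, as did 17% of all probe sets tested. GstE1 fell 1.83-fold and GstE3 fell 1.51-fold, while GstE7, which had the largest mean difference of the 3 at 2.06-fold, did not pass the test. The authors put these genes in their table because of this same contrast. The tests below therefore describe the arrays and are not independent evidence of a fall.

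GstE1 encodes an enzyme known to conjugate lipid peroxidation products. Its intensity was 1640, 1889 and 2054 on Canton S replicates 1, 2 and 3, and 1139, 737 and 1210 on DHR96 mutant replicates 1, 2 and 3. The groups did not overlap, and DHR96 mutant replicate 2 was far below the other two mutant arrays. The means were 1861 ± 208 and 1029 ± 255 (SD, n = 3 each), a log2 difference of -0.87 (mutant minus Canton S, SE 0.177, 95% interval -1.28 to -0.46, limma adjusted p = 0.0322).

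GstE3 was the steadiest of these genes within groups. Canton S arrays gave 5529, 6129 and 6737, and mutant arrays gave 4321, 3507 and 4351. Again no mutant value reached the Canton S range, and the lowest value belonged to DHR96 mutant replicate 2. The means were 6132 ± 604 and 4060 ± 479 (SD, n = 3 each), a log2 difference of -0.60 (SE 0.0979, 95% interval -0.82 to -0.37, limma adjusted p = 0.0173).

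GstE7 carries the ontology terms for toxin response and glutathione transferase activity in the authors' deposited table. Canton S arrays gave 2656, 3004 and 4036, and mutant arrays gave 1892, 996 and 1909. Both groups were wide: Canton S replicate 3 stood well above its group and DHR96 mutant replicate 2 well below its own. The means were 3232 ± 717 and 1599 ± 522 (SD, n = 3 each), a log2 difference of -1.05 (SE 0.259, 95% interval -1.65 to -0.44). The limma adjusted p was 0.0535, just over the threshold of 0.05.

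**Figure D1:**
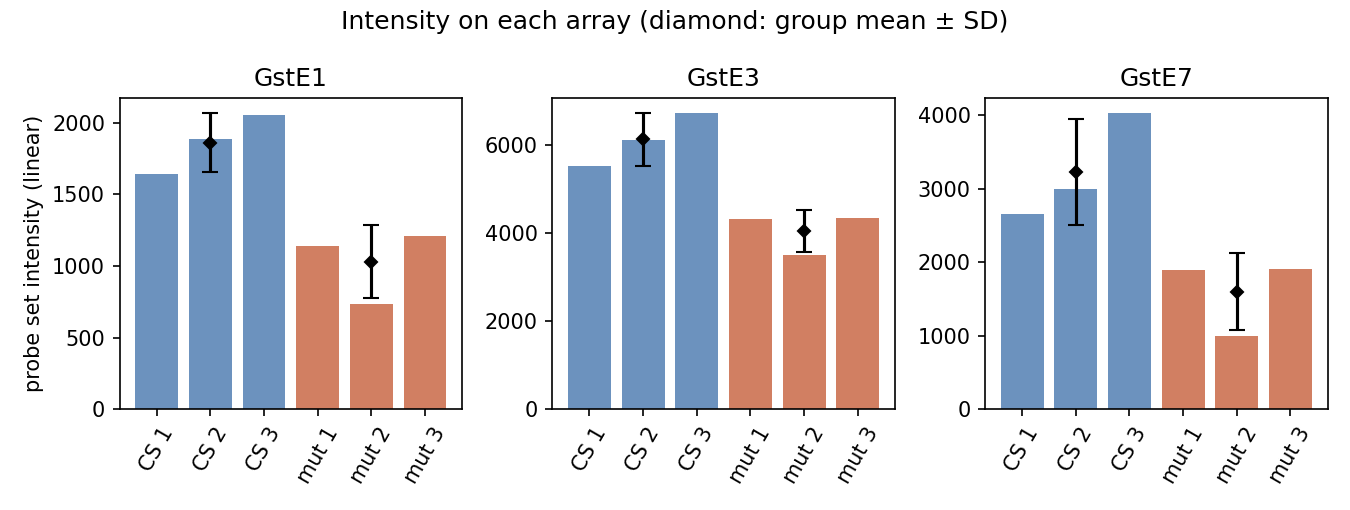
Bars give the linear probe set intensity of GstE1, GstE3 and GstE7 on each of the 6 arrays (CS, Canton S; mut, DHR96 mutant), and diamonds with bars give the group mean ± SD (n = 3). Every mutant bar is lower than every Canton S bar of the same gene, and mutant array 2 is the lowest in each panel, at 737, 3507 and 996.

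The nearest arrays of the groups lay closer together than the group means. The lowest Canton S array exceeded the highest mutant array 1.36-fold for GstE1, 1.27-fold for GstE3 and 1.39-fold for GstE7. With 3 arrays against 3, each such separation has an exact two-sided permutation p of 0.10, the smallest that this design allows. Over all probe sets tested, 6.96% passed the limma threshold and 3.67% did so as lower in the mutant, and 17% had all mutant arrays below all Canton S arrays. The rule that chose the genes used this contrast, so nothing is read from 2 of 3 passing and 3 of 3 separating against those shares. The median log2 difference over all probe sets tested was -0.0015, on values that the authors had normalized between arrays.

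Set against the Canton S mean, DHR96 mutant replicate 2 was the lowest array for each gene, and the other two mutant arrays were nearly equal. DHR96 mutant replicates 1 and 3 held 61.2% and 65.0% of the Canton S mean of GstE1, 70.5% and 71.0% of that of GstE3, and 58.5% and 59.1% of that of GstE7. Replicate 2 held 39.6%, 57.2% and 30.8%. The levels of replicates 1 and 3 thus differed by no more than 1.06-fold for any of these genes, whereas replicate 1 exceeded replicate 2 by 1.55-fold for GstE1, 1.23-fold for GstE3 and 1.90-fold for GstE7.

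The Canton S arrays were also ranked alike by the 3 genes. Replicate 1 was the lowest and replicate 3 the highest for all 3 genes, with a spread from lowest to highest of 1.25-fold for GstE1, 1.22-fold for GstE3 and 1.52-fold for GstE7. The combination of Canton S replicate 1 lowest, Canton S replicate 3 highest and DHR96 mutant replicate 2 lowest in its group was also found in 11 of the 80 probe sets that the authors' deposited table gives as lower, or 13.8%, these genes included, and in 5.35% of all probe sets tested. DHR96 mutant replicate 2 alone was the lowest mutant array for 35.5% of all probe sets tested.

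These genes varied within groups more than most probe sets of like brightness (mean within 0.5 on the log2 scale). In Canton S, the SD of the log2 level was 0.163 for GstE1, 0.142 for GstE3 and 0.309 for GstE7. Those values are 3.24, 3.03 and 6.77 times the median SD of 2733, 700 and 1805 probe sets of like brightness, and lie at percentiles 96.4, 94.1 and 99.3 of them. In the mutant arrays the SDs were 0.384, 0.176 and 0.532, at percentiles 98.7, 95.7 and 99.7. The spread in the controls alone thus already set GstE7 apart from nearly all probe sets of its brightness. An SD over 3 arrays is itself imprecise, and these percentiles are given as a description.

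**Figure D2:**
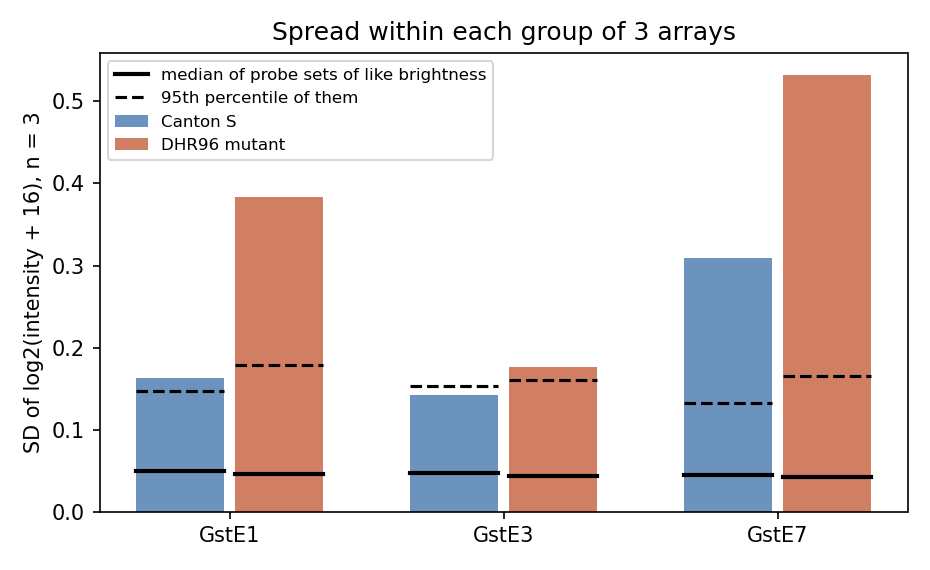
Bars give the SD of log2(intensity + 16) over the 3 arrays of each group for GstE1, GstE3 and GstE7; solid lines mark the median and dashed lines the 95th percentile of the SDs of probe sets of like brightness. GstE7 had the tallest bars, 0.309 in Canton S and 0.532 in the DHR96 mutant, and GstE3 the lowest.

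The spread also shows in the authors' own statistic. In the authors' deposited table, which lists a signed fold, a SAM score and a q-value, GstE7 was the 12th largest of 80 falls (2.02-fold), GstE1 the 17th (1.81-fold) and GstE3 the 35th (1.51-fold). The denominator of the SAM score, which grows with the spread within groups, ranked 3rd of 260 for GstE7, 14th for GstE1 and 63rd for GstE3 in the authors' deposited table. The q-values there were 1.51% for GstE7 and 1.01% for GstE1 and GstE3, within a table whose q-values reach 2.18% and whose folds start at 1.301. A gene of large fold and large spread was thus listed by the authors but did not pass limma.

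Whether the 3 genes differ in the size of their difference could not be decided with 3 arrays against 3, since no exact two-sided p can fall below 0.10. The log2 ratio of GstE3 to GstE7 within an array averaged 0.94 ± 0.175 in Canton S and 1.39 ± 0.356 in the mutant (SD, n = 3 each), so GstE7 was lower relative to GstE3 by a further 0.45 in the mutant (95% interval -0.19 to 1.09). The groups did not overlap for this ratio, which gives an exact two-sided permutation p of 0.10, or 0.15 after Benjamini-Hochberg adjustment over the 3 pairs. The ratio of GstE1 to GstE3 changed by -0.28 (95% interval -0.61 to 0.06, exact permutation p = 0.10, 0.15 adjusted). For GstE1 and GstE7 the groups overlapped, and the ratio changed by 0.17 (95% interval -0.19 to 0.54, exact permutation p = 0.40, 0.40 adjusted). Without DHR96 mutant replicate 2, the 3 changes were 0.24, -0.16 and 0.087 in the same order.

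Each difference was smaller without DHR96 mutant replicate 2, by construction, since that array was the lowest of the mutant group for each gene. Without it, the log2 differences were -0.65 for GstE1 (limma adjusted p = 0.0176), -0.49 for GstE3 (0.0235) and -0.74 for GstE7 (0.0533), each with a smaller SE (0.0891, 0.0754 and 0.153), in a fit where 3.13% of probe sets passed. That array also had the highest signal of the manufacturer's 3' controls over their 5' partners, which rises as RNA degrades, at 2.61 for actin, 1.42 for GAPDH and 2.70 for eIF-4a. The other arrays spanned 2.23 to 2.46, 1.299 to 1.36 and 2.21 to 2.51. The part of RNA quality in the levels of these genes was not tested.

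A poly-A spike-in control, Dap 3', split the arrays differently, with DHR96 mutant replicates 2 and 3 apart from the rest. It read 473 and 519 there and 1007 to 1217 on the other 4 arrays. The split was set from this control alone. With this split as a block, which compares DHR96 mutant replicate 1 with the 3 Canton S arrays, the log2 differences were -0.69 for GstE1, -0.50 for GstE3 and -0.74 for GstE7. None passed (limma adjusted p = 0.417, 0.318 and 0.528, unadjusted p = 0.0290, 0.00980 and 0.0766), in a fit where 0.165% of probe sets did. On the arrays on the other side of the split there were no Canton S samples. DHR96 mutant replicate 3, on that side, read within 1.06-fold of replicate 1 for each gene. Replicate 2, on the same side, was exceeded by replicate 1 by 1.55-fold for GstE1, 1.23-fold for GstE3 and 1.90-fold for GstE7. The part of the split in these levels was not tested.

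**Figure D3:**
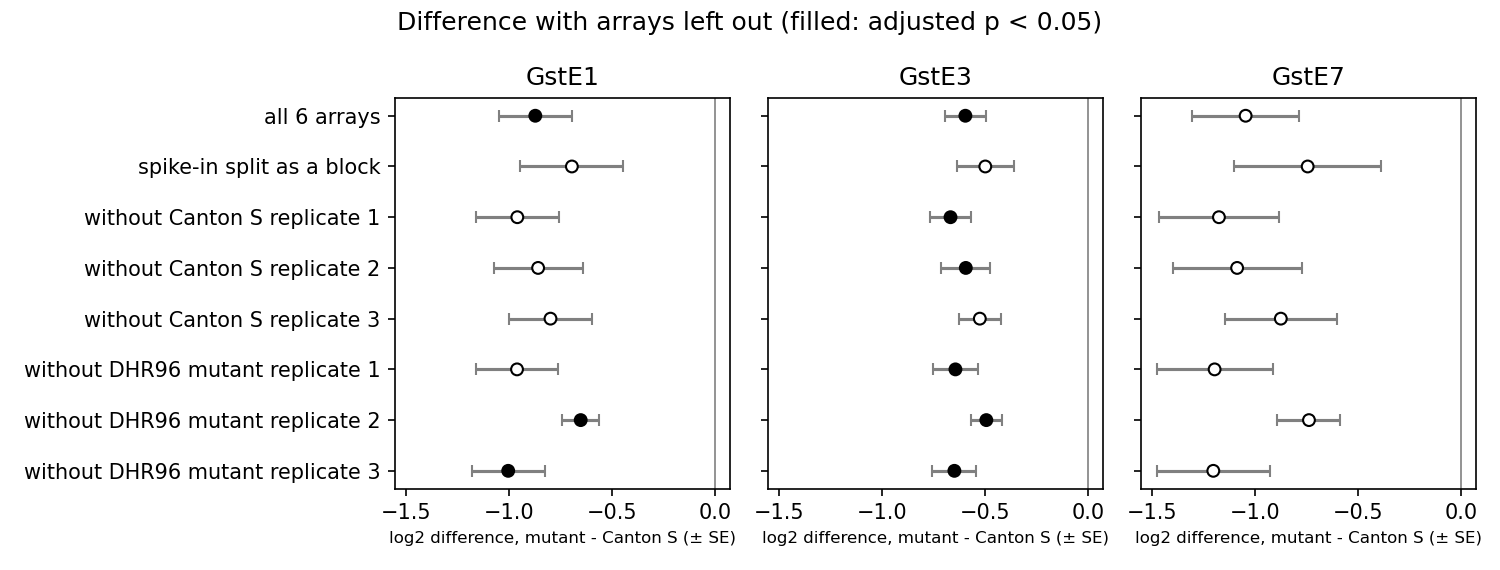
Points give the log2 difference (DHR96 mutant minus Canton S) of each gene with its SE for all 6 arrays, with the spike-in split as a block, and with each array left out; filled points have a limma adjusted p under 0.05. All points lie below 0, which follows from the lack of overlap between the groups. GstE3 keeps the narrowest range (-0.67 to -0.49), and GstE7 has no filled point.

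The GstE genes form a compact cluster on one arm of the second chromosome. In the gene order of Release 6 of the fly genome, 10 GstE genes follow each other with no other protein-coding gene between them and 2 pseudogenes among them, and the other 4 of the 14 GstE genes lie elsewhere. GstE1, GstE3 and GstE7 take places 2, 4 and 8 in this run, so no member is the direct neighbour of another. The authors' deposited table names none of the other 7 genes of the run and none of the 50 gene entries, of any kind, on each side of it. That table lists only 1.39% of all probe sets tested, so nothing is read from these absences. Probe sets outside that table carry no gene name here, so the levels of the other GstE genes were not analysed. Members of one family have similar sequences, and how far a paralog's transcript adds to each of these signals was not tested.

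Other detoxification genes of the authors' deposited table moved both ways. That table lists 260 of the 18769 probe sets tested, or 1.39%, of which 30.8% are lower and 69.2% higher in the mutant. Of the 35 genes with a Gst symbol in the gene table, the 3 GstE genes were those listed there. Of 85 cytochrome P450 genes, whose products oxidise foreign compounds, 5 were listed, of which 3 fell and 2 rose, with a median log2 difference of -0.40. These genes too were listed because of this contrast, so their directions are a description.

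Cyp6g1, known for insecticide resistance, read 7672, 8164 and 8040 in Canton S and 5997, 4773 and 5099 in the mutant, a log2 difference of -0.59 (SE 0.0773, limma adjusted p = 0.00821). That is close in size to GstE3, with DHR96 mutant replicate 2 again the lowest. On the same scale Cyp6t1 fell by 0.45 and Cyp4aa1 fell by 0.40, while Cyp4s3 rose by 0.47 and Cyp4e3 rose by 0.89 (limma adjusted p = 0.00982, 0.00744, 0.00949 and 0.0360). Mdr50, which encodes an ATP-driven efflux transporter, was the 1 listed gene of 6 in its group and fell by 0.60 (SE 0.0610, limma adjusted p = 0.00383), from 883 ± 45.5 to 579 ± 39.1 (SD, n = 3 each). Its highest mutant value, 624, was that of DHR96 mutant replicate 2, the array where the GstE genes were lowest. With the spike-in split as a block, none of these P450 genes nor Mdr50 passed (lowest limma adjusted p = 0.0742, for Mdr50).

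The deposited table, which lists 1.39% of all probe sets tested, held 0 of 35 UDP-glycosyltransferase genes, 0 of 14 carboxylesterase genes, 0 of 9 genes of glutathione synthesis and antioxidant defence, and 0 of 5 genes around CncC, a transcription factor known to switch on GstD1 and other stress genes in flies. With so small a share listed, counts of 0 in groups of this size say only that none met the authors' selection. One gene outside the Gst symbols was found, after its values were seen, under the term for glutathione transferase activity beside GstE1 and GstE7. It is se (sepia, CG6781), which encodes an Omega class enzyme that makes an eye pigment precursor. It read 512, 527 and 430 in Canton S and 668, 755 and 835 in the mutant, a log2 difference of 0.60 (SE 0.0989, limma adjusted p = 0.0172), opposite in direction to the GstE genes. Its Canton S values were near the array medians of 470.4 to 484.2. With the spike-in split as a block its difference was 0.44 (limma adjusted p = 0.314).

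**Figure D4:**
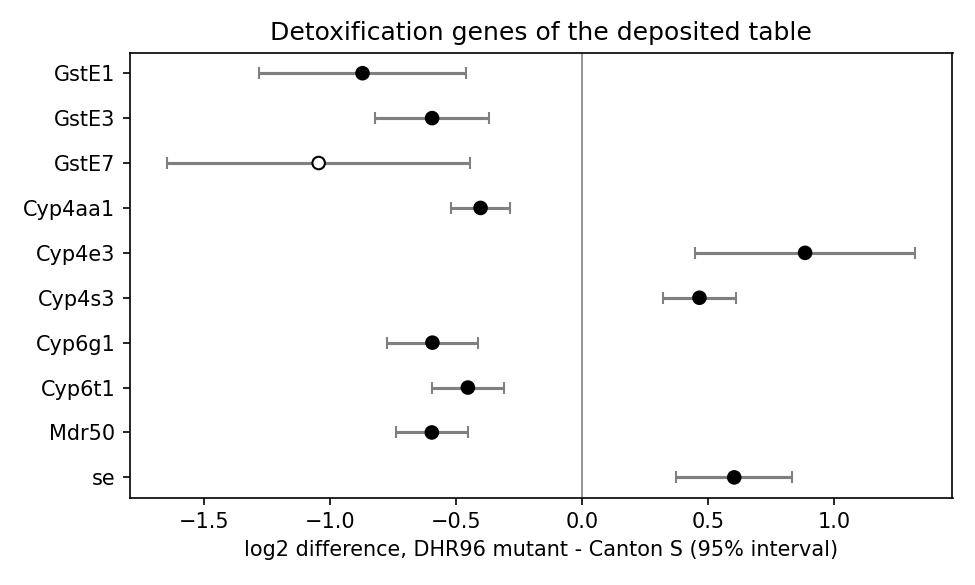
Points give the log2 difference (DHR96 mutant minus Canton S) with its 95% interval for the detoxification genes of the authors' table; filled points have a limma adjusted p under 0.05. GstE1, GstE3, 3 of the 5 P450 genes and Mdr50 lie below 0 and passed, Cyp4e3, Cyp4s3 and se lie above 0 and passed, and GstE7, lowest of all at -1.05, has the widest interval.

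In whole flies, fewer cells of a type and less RNA per cell cannot be told apart. Markers of tissues that are known to express detoxification genes can be named only where the authors' table lists them, so a difference between the groups was a condition of their being seen. Of 21 midgut markers, 5 were in the deposited table (Jon65Ai, Jon65Aii, Jon99Ci, Jon99Fi and iotaTry) and all 5 fell, in a table with 30.8% of its probe sets lower. Their summed intensity was 25817 to 28158 in Canton S and 14000.5 to 17932 in the mutant, with the highest mutant sum in DHR96 mutant replicate 2, where the GstE genes were lowest. Of 9 fat body markers, 6 were listed: Lsp2, Fbp1, Fbp2, Lsp1beta, Lsp1gamma and Obp99b. At the limma threshold 5 of them rose and 0 fell, in a table with 69.2% of its probe sets higher by sign. Their sums were 6481 to 8311 in Canton S and 13244 to 18631 in the mutant. The Lsp genes are named for larval serum proteins, and these flies were adults. Whether the sums follow the amount of adult fat body was not tested. The lowest single value of a listed marker was 570, against array medians of 470.4 to 484.2. No marker of the Malpighian tubule was in the table. The part of tissue makeup in the GstE levels was not tested.

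The genes whose levels over the 6 arrays lay nearest to the mean of the GstE genes were CG3884, CG33091, Spn55B, olf186-M and CG9451. Likeness was measured over 248 named genes of the authors' deposited table as the root mean square difference between log2 levels, each gene centred on its own mean. The distances were 0.103, 0.128, 0.180, 0.188 and 0.214, against a median of 0.313 over the 77 genes that the table gives as lower. GstE1 itself lay 0.0404 from the mean that it enters, and GstE3 and GstE7 lay 0.166 and 0.157 from it.

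CG3884 read 1288, 1299 and 1734 in Canton S and 1033, 673 and 966 in the mutant. It shared the high Canton S replicate 3 and the low DHR96 mutant replicate 2, and like GstE7 it missed the threshold, at a log2 difference of -0.69 (limma adjusted p = 0.0545). Spn55B, annotated in the table as a serine protease inhibitor, read 1411, 1554 and 2145 against 1166, 960 and 1148, with a difference of -0.62 (limma adjusted p = 0.0504). CG33091, olf186-M and CG9451, the last annotated as an acid phosphatase, had log2 differences of -0.71, -0.64 and -0.53 and fell (limma adjusted p = 0.0160, 0.0208 and 0.0206). With the spike-in split as a block, these were -0.56, -0.46 and -0.36 and none passed (limma adjusted p = 0.304, 0.344 and 0.330). All 5 had their lowest value in DHR96 mutant replicate 2. They were chosen as nearest to the GstE mean over these same arrays, so the highs and lows they share with it follow largely from that choice.

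**Figure D5:**
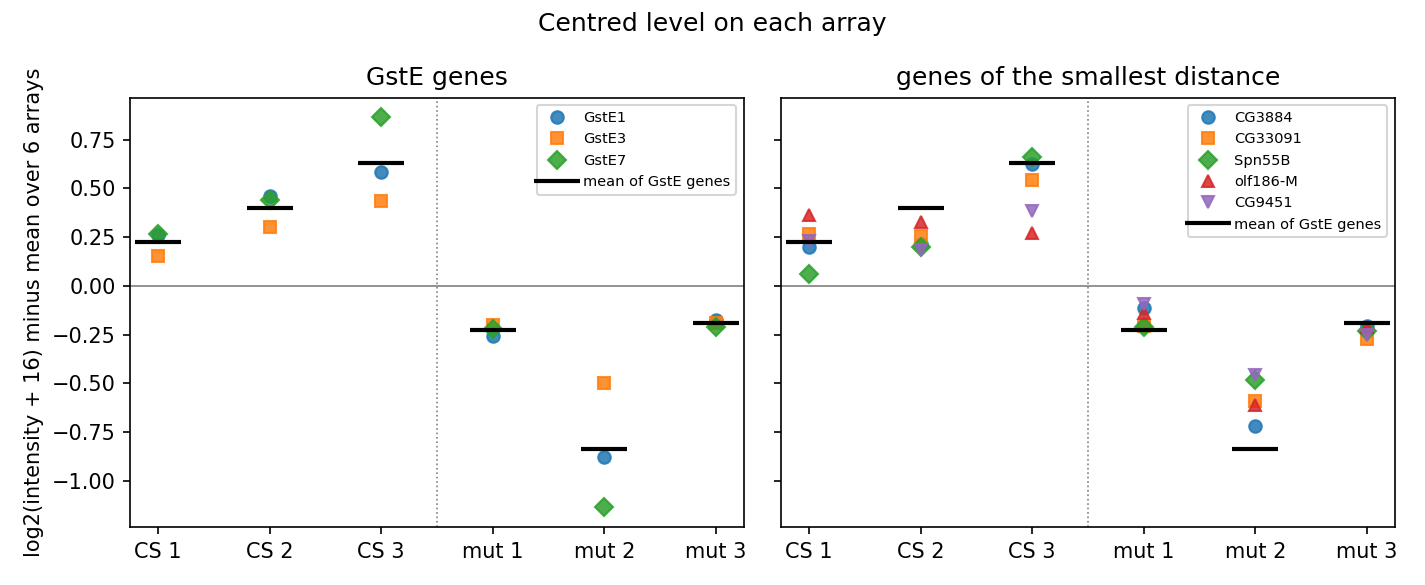
Points give log2(intensity + 16) of each gene minus its mean over the 6 arrays, for the GstE genes (left) and the 5 genes of smallest distance (right); black dashes mark the mean of the GstE genes. Both panels are above 0 on the Canton S arrays and lowest on mutant array 2, where GstE7 reached -1.14 and GstE3 -0.50. The genes on the right were chosen for nearness to the black dashes over these arrays, so their likeness follows from the choice.

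The targeted gene Hr96 did not fall on the arrays labelled DHR96 mutant. It read 527, 498 and 546 in Canton S and 977, 985 and 928 in the mutant, a log2 difference of 0.86 (SE 0.0486, limma adjusted p = 0.000195). The position of its probe set relative to the mutation is not given in the labels, so this level cannot check which arrays are mutant, and each direction here relies on the labels being right. Median intensities of the arrays were 470.4 to 484.2, and every GstE value stood above them. No source used here states how background was corrected, so folds may be understated, most at the lower intensities.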

How the data were processed

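Arrays were grouped by the sample titles. The authors deposited intensities on a linear scale, 1 per probe set, whose nearly equal quantiles show a normalization between arrays. MAS5 is the one tool in the submitters' processing notes, without a version or a role, and how background was corrected is not stated. Per the file headers, the authors' deposited comparison table gives for each probe set the SAM score with its denominator and its numerator (log2), a fold with a sign, and the q-value (percent). Its numerator equalled mutant minus Canton S mean log2 values within 5.68e-10.

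The 18952 deposited probe sets include 183 controls of the manufacturer, which were left out. limma 3.58.1 (R 4.3.3) was fitted to log2(intensity + 16) of the other 18769 with group as the only term, lmFit and eBayes with an intensity trend, two-sided, with Benjamini-Hochberg adjustment over all of them and calls at an adjusted p under 0.05. Folds of group means are on that log2 scale; folds between single arrays and percentages of the Canton S mean are ratios of the deposited intensities. The fit was tested on simulated data. Exact permutation tests used SciPy 1.17.1.

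Genes were named through CG numbers in RefSeq's Release 6 gene table, which matched 251 of the table's 260 probe sets; no coordinates are given, as the build behind the files is not stated. The members and lists were chosen with earlier results of these data known. Named genes are the GstE genes, Hr96, listed detoxification genes past the threshold and the 5 nearest profiles. Alternatives were other scalings, pseudocounts, filters and variance models, replicate and spike-in blocks, and each array left out. Of the marker lists, testis and accessory gland held 1 gene of the table (Acp76A, 8798 to 9778 in Canton S, 11614 to 12601 in the mutant), and ovary, muscle, eye and tubule 0. The number of arrays limits the precision.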

Additional observations from a re-analysis of the deposited data

How the results depend on the processing

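All 3 GstE differences stayed below 0 under each of the 15 alternatives. Since the groups did not overlap, leaving out an array, a block, a pseudocount, a filter or a variance model could not change that sign. The calls did not hold throughout: GstE1 passed in 8, GstE3 in 12 and GstE7 in 1. GstE1 (-0.87 with all arrays) did not pass with robust variances (-0.87, limma adjusted p = 0.0939), and neither GstE1 (-0.87, 0.0687) nor GstE3 (-0.60, 0.0527) passed with the replicate block. Over all probe sets, the deviations of same-numbered arrays from their group means correlated at 0.19, -0.22 and -0.24. The labels name no pairing, and these correlations cannot decide whether the numbers pair the arrays. With the replicate block the SEs were 0.154 for GstE1, 0.0854 for GstE3 and 0.196 for GstE7, against 0.177, 0.0979 and 0.259 without it. With the spike-in split as a block, GstE1 and GstE3 differed by -0.69 and -0.50 and did not pass, on fewer arrays. GstE7 passed with the dimmest probe sets left out (-1.05, limma adjusted p = 0.0484), where fewer probe sets were tested. With an array left out, the log2 differences ranged from -1.003 to -0.65 for GstE1, -0.67 to -0.49 for GstE3 and -1.20 to -0.74 for GstE7, with limma adjusted p from 0.0176 to 0.0887, 0.0235 to 0.0522 and 0.0533 to 0.132. GstE1 was lost without any one Canton S array or DHR96 mutant replicate 1, and GstE3 without Canton S replicate 3.

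The number of Gst genes past the threshold, 2, became 1 with robust variances and 0 with either block (the replicate block or the spike-in split), and 0 to 2 with an array left out, 0 without Canton S replicate 3. The P450 count, 5, became 3 with the replicate block and 0 with the spike-in split (all 5 at an unadjusted limma p under 0.05), and was 4 to 5 with an array left out. Over all probe sets, 1306 passed, against 813 without the intensity trend, 240 with the replicate block, 31 with the spike-in split and 287 to 803 with an array left out. With the dimmest probe sets left out, the Gst count became 3 and 1548 probe sets passed in all. With robust variances, the P450 count was 4 and 1466 probe sets passed in all. The cause of these changes was not tested. Leaving out an array lowers the number of arrays by construction, and a block leaves fewer degrees of freedom for estimating the spread.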
